A study of Mus musculus with 12 samples.

Results

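The hypothalamic peptide genes followed across the series were Pomc, Cartpt, Adcyap1, Nts, Tac1, Cck, Nmb, Grp, Ucn and Bdnf. These 10 genes were chosen by name, as genes of peptides that curb feeding or are expressed beside such peptides, and every probe that the platform annotation assigns to one of them was taken. Each gene had 1 probe, so the set holds 10 of the 33012 probes and 10 of the 13840 genes with a name. The data are 12 one-colour arrays, read by chemiluminescence from digoxigenin-labelled cRNA. Male mice of the homozygous congenic strain B6.CAST-17, which carries chromosome 17 material of the wild-derived CAST strain on the inbred B6 background, were compared with male wild type B6 mice. The series title links a sub-congenic line of this kind to physical activity and carbohydrate preference. Hypothalamus and skeletal muscle gave 4 groups of 3 arrays: congenic hypothalamus, wild type hypothalamus, congenic skeletal muscle and wild type skeletal muscle. The series text describes 3 mice per strain as biological replicates, and no treatment or age is given. Where the chromosome 17 segment ends is not stated in the labels, and the titles call the congenics short for hypothalamus alone. The description of every sample names the congenic strain, wild type samples included, so groups were taken from the titles. The congenic strain is a single line, and an effect of its segment cannot be told apart from other differences between the lines.

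Pomc encodes proopiomelanocortin, a precursor that is cut into melanocyte-stimulating hormones, adrenocorticotropin and beta-endorphin. Neurons of the arcuate nucleus release the melanocortins, which act on the receptors Mc3r and Mc4r to reduce food intake, and many of these neurons also make the peptide of Cartpt. The pituitary, which hangs below the hypothalamus, makes far more Pomc mRNA than the hypothalamus does. The other peptides act through receptors of their own: Cck and the bombesin-like peptides of Nmb and Grp promote satiety, Nts and Adcyap1 (PACAP) lower intake when given into the brain, Ucn binds receptors of the corticotropin-releasing factor family, Tac1 gives substance P, and Bdnf, through the receptor Ntrk2, acts downstream of the melanocortins.

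Windows of 250 bases before the annotated start are shown for 5 of the genes, since peptide genes are known for control by cyclic AMP. They were read from the RefSeq promoter table of build GRCm38.p6, which holds 16 windows for 9 of the genes, with several for Bdnf and Adcyap1. Capitals mark TGACG on either strand (CGTCA on the printed strand when it lies on the other), the longer palindrome TGACGTCA that contains it, and TATAAA on the gene's own strand. The sequences are given 5′ to 3′ on the gene's strand.
Pomc (chr12:3954695-3954944, plus strand): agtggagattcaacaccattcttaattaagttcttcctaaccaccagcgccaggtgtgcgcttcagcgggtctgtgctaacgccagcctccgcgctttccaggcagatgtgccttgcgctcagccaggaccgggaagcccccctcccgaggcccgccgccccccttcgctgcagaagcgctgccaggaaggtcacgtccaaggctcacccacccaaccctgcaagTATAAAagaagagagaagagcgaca
Cartpt (chr13:99900684-99900933, minus strand): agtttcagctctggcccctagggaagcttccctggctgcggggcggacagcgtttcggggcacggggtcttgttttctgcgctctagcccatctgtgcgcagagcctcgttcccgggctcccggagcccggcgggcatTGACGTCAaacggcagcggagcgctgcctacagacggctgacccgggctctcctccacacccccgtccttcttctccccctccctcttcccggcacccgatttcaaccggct
Adcyap1 (chr17:93198918-93199167, plus strand): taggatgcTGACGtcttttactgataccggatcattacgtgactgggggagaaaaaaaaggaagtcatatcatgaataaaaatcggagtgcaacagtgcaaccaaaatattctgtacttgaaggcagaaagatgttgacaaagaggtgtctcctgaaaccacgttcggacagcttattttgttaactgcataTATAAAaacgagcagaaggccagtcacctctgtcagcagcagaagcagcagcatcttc
Tac1 (chr6:7554811-7555060, plus strand): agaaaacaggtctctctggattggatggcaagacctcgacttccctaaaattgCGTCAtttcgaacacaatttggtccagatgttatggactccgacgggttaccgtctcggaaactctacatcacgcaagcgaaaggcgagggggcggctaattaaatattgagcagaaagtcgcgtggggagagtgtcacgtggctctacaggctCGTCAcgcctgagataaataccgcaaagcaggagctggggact
Cck (chr9:121495695-121495944, minus strand): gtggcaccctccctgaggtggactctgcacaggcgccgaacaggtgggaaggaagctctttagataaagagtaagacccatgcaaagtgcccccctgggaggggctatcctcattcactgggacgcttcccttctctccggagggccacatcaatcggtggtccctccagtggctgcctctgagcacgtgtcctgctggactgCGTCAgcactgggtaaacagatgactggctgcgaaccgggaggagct
TGACG, the core of the cyclic AMP response element, lay in 8 of the 16 windows and in 17.8% of all 32851 windows of this length. The windows of Adcyap1 overlap and share 1 such site, so it counts in both. By gene, 7 of 9 held TGACG in a window, against 19.8% of 27025 genes, and genes with several windows have more chances to hold it. The palindrome TGACGTCA was found in 2 windows, those of Cartpt and Ucn, against 1.55% of all windows, and TATAAA in 2, those of Pomc and Adcyap1, against 7.59%. In Cartpt the palindrome spanned positions -112 to -105 before the start, and in Pomc TATAAA spanned positions -25 to -20. These matches describe the B6 reference sequence. Binding of any factor was not measured, and no link of these sites to the array values was tested.

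Values are given as deposited, on a log scale taken as base 2 from their range of 5.35 to 21.13, so every fold rests on that base. A level on these arrays cannot be compared between probes, and in whole tissue fewer cells of a type and less RNA per cell cannot be told apart. Marker genes were read against the tissue labels. In muscle 7 genes of skeletal muscle had medians of 19.79 to 20.12 per array, against 8.88 to 10.01 in hypothalamus. Wild type hypothalamus array 1 stood apart: its Spearman correlations with the other 5 hypothalamus arrays were 0.420 to 0.461, against 0.775 to 0.853 among those 5. On it the median of 9 neuronal genes was 10.76, against 16.04 to 16.99 on the other 5 and 8.18 to 8.97 in muscle. Of those 9 genes 4 were below all of the other 5 arrays and 1 above, while Nefl (16.40) and Stmn2 (17.80) lay within their range. Of all probes 28.0% were below the other 5 arrays and 38.1% above. Of 15 other hypothalamic peptide genes, 5 were below and 6 above: the orexin gene Hcrt was 9.06 against 16.30 to 19.10, while Gal, the galanin gene, was 16.04 against 13.57 to 15.63, and Oxt, at 18.69, and Avp, at 16.87, lay within the range of the others. The strain differences of the 10 genes in hypothalamus are therefore given with and without this array. A second array, congenic hypothalamus array 1, held pituitary hormone genes at high values, as described with Pomc.

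No strain difference among the 10 genes passed the test in hypothalamus, whether or not wild type array 1 was included. Over all 6 arrays 0 of 10 passed limma at an adjusted p under 0.05 and 0 of 10 had an unadjusted p under 0.05, where 0.0% and 1.99% of all 33012 probes did. With that array left out, 0 of 10 passed (0.0% of probes), and 1, Bdnf, had an unadjusted p under 0.05 (5.33% of probes). The differences, congenic minus wild type, had a median of 0.93 over all 6 arrays and of 0.34 when wild type array 1 was left out, beside -0.02 and -0.07 over all named genes. Of the 10 differences 7 were positive over all 6 arrays, 9 without that array, among them Grp at 0.00, and 6 with congenic array 1 left out too, where the median was 0.16. Over all named genes 48.8%, 44.5% and 44.5% were positive. The congenic and wild type values of every gene overlapped over all 6 arrays (9.16% of probes did not overlap). Once wild type array 1 was left out, 1 of the 10, Bdnf, did not overlap, with the congenic values above, where 22.6% of all probes did not overlap and 9.32% had the congenic values above. With congenic array 1 left out as well, 3 of 10 did not overlap (35.6% of probes): Adcyap1 and Bdnf with the congenic values above (16.0%) and Pomc with them below (19.5%). In that fit 0 of 10 passed limma (0.0%).

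**Figure D1:**
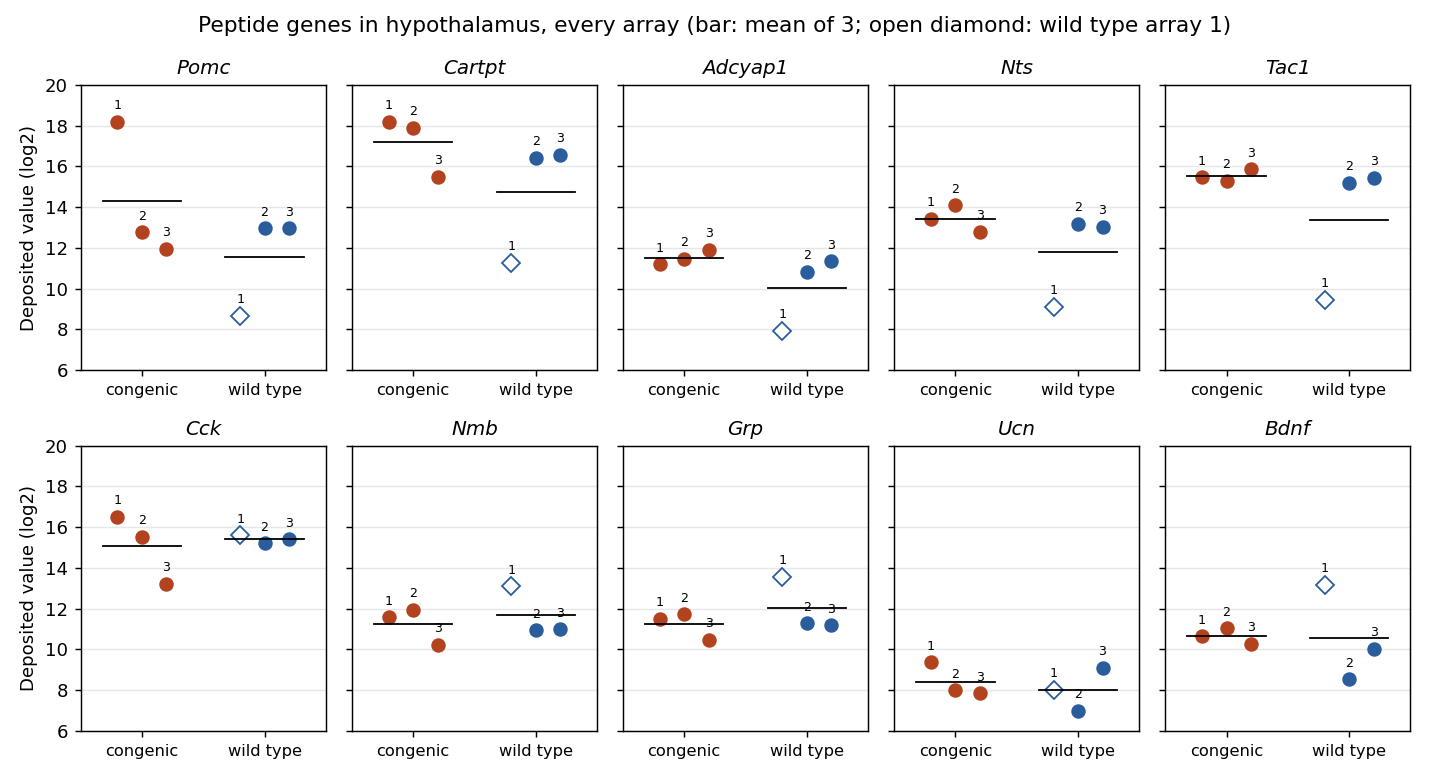
Deposited value (log2) of each of the 10 genes on the 6 hypothalamus arrays, with the replicate number above each point, the mean of 3 as a bar and wild type array 1 as an open diamond. Pomc, Cartpt, Adcyap1, Nts and Tac1 are lowest on wild type array 1, and Nmb, Grp and Bdnf are highest on it.

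The shift of wild type array 1 divided the peptides. Pomc, Cartpt, Adcyap1, Nts and Tac1 were lower on it than on any of the other 5 hypothalamus arrays, with differences from their median of -3.42 (Adcyap1) to -5.96 (Tac1). Nmb, Grp and Bdnf were above all of the other 5, by 2.11, 2.29 and 2.89. Cck and Ucn lay within their range. Of all probes 28.0% were below and 38.1% above the other 5 arrays. Being lower by more than 3 held for 5 of the 10 genes and for 9.26% of all probes.

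Pomc was 18.18, 12.77 and 11.97 on the congenic hypothalamus arrays and 8.68, 12.97 and 12.97 on the wild type arrays. Congenic array 1 thus stood high and wild type array 1 low, while the other 4 values lay between 11.97 and 12.97. The means were 14.31 ± 3.38 (SD, n = 3) and 11.54 ± 2.48 (n = 3), a difference of 2.77 (SE 1.77, 95% interval -1.27 to 6.82; limma adjusted p = 0.936). Leaving out wild type array 1 gave a difference of 1.34 (-2.26 to 4.94; limma adjusted p = 0.936), and without congenic array 1 it was 0.83 (limma adjusted p = 0.988). With both arrays left out the sign turned, to -0.60 (-1.50 to 0.30; limma adjusted p = 0.903), with 2 arrays per strain. The congenic values then lay below the wild type values without overlap, as they did for 19.5% of all probes.

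The high Pomc value coincided with those of pituitary hormones. Growth hormone, Gh, was 17.46 on congenic array 1 and 7.57 to 8.86 on the other 5 hypothalamus arrays. Prolactin, Prl, was 14.94 there and 8.08 to 9.27 on the others. The shared alpha subunit Cga was 15.56 on that array and 12.83 to 14.72 elsewhere. The thyrotropin subunit Tshb was 12.35 on congenic array 1 but 12.92 on wild type array 1, where Pomc was low. Over the 6 anterior pituitary markers measured of 10 listed, the median was 13.65 on congenic array 1, 9.56 and 8.60 on the other congenic arrays and 8.35 to 9.82 on the wild type arrays, and 5 of 6 were above the array's own median on it, against 2 to 4 elsewhere. Of markers of Pomc-producing pituitary cells, the transcription factor Pitx1 was 11.04 on congenic array 1, 11.13 on wild type array 1 and 7.83 to 8.79 on the rest, and Pax7, of the intermediate lobe, was 10.19, 10.85 and 6.64 to 7.85. Tbx19, of corticotrophs and melanotrophs, was 7.54 on congenic array 1 and 7.89 to 9.39 on the others. Pcsk1 was 10.93 on congenic array 1, 7.86 on wild type array 1 and 10.65 to 12.04 on the rest. In the same order Crhr1 was 10.10, 11.37 and 8.84 to 10.10, and Neurod1 was 9.10, 10.80 and 8.88 to 9.77. The median of these 6 markers was 10.14 on congenic array 1, 10.83 on wild type array 1 and 8.53 to 9.44 on the rest. The part of pituitary RNA in the Pomc value was not tested.

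**Figure D2:**
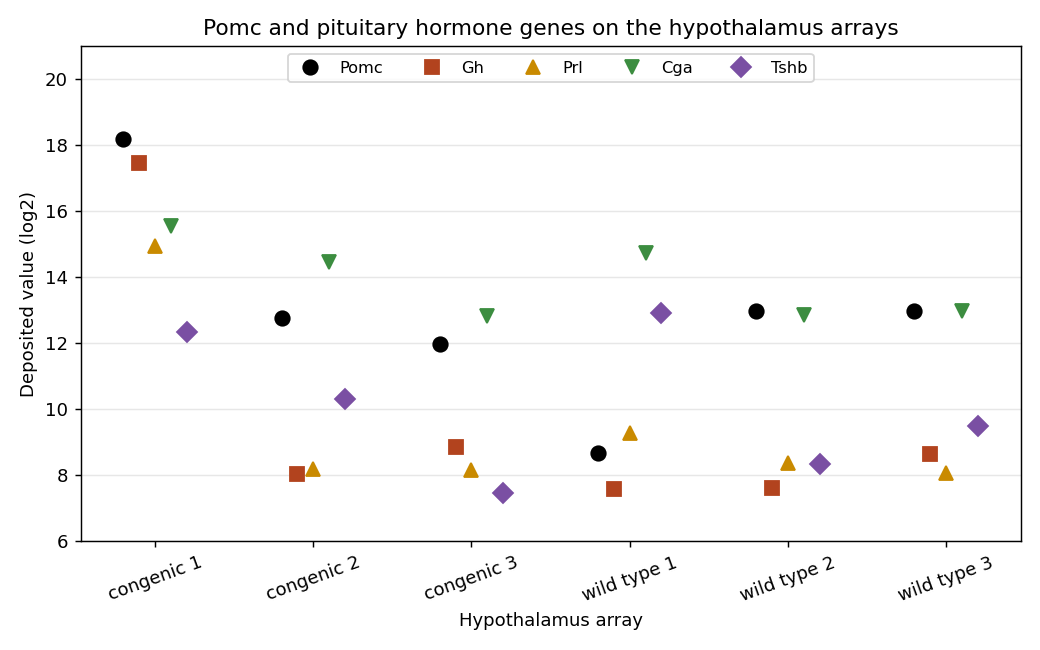
Deposited value (log2) of Pomc and of the pituitary hormone genes Gh, Prl, Cga and Tshb on each hypothalamus array. Gh at 17.46 and Prl at 14.94 are high on congenic array 1, the array on which Pomc is 18.18, and Tshb is also high, at 12.92, on wild type array 1, where Pomc is 8.68.

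Cartpt, whose peptide is released by Pomc neurons and by other hypothalamic cells, was 18.20, 17.88 and 15.49 on the congenic arrays and 11.26, 16.43 and 16.56 on the wild type arrays. Congenic arrays 1 and 2 were above wild type arrays 2 and 3, and congenic array 3 was below them. The means were 17.19 ± 1.48 (SD, n = 3) and 14.75 ± 3.02 (n = 3), a difference of 2.44 (SE 1.44; limma adjusted p = 0.936). Without wild type array 1 the difference was 0.70 (95% interval -1.09 to 2.49; limma adjusted p = 0.935), and with congenic array 1 left out as well it was 0.19.

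Adcyap1, the gene of PACAP, is the member on chromosome 17, the chromosome of the congenic segment. It was 11.20, 11.47 and 11.92 on the congenic arrays and 7.93, 10.84 and 11.35 on the wild type arrays. Wild type array 3 lay between congenic arrays 1 and 2, so the strains overlapped even without wild type array 1. The difference was 1.49 (SE 0.94; limma adjusted p = 0.936) over all arrays. On the other 5 arrays it was 0.43 (95% interval -0.38 to 1.24; limma adjusted p = 0.907), which spans a fold of 0.770 to 2.37. With congenic array 1 also left out it was 0.60 (-0.32 to 1.52).

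Tac1, the precursor of substance P and neurokinin A, had the narrowest range of the 10 genes on the 5 arrays that resembled each other. It was 15.46, 15.30 and 15.85 on the congenic arrays and 9.47, 15.21 and 15.43 on the wild type arrays. Its difference went from 2.17 (SE 1.46; limma adjusted p = 0.936) over all arrays to 0.22 (95% interval -0.54 to 0.98; limma adjusted p = 0.949) without wild type array 1, and the fold then lay between 0.687 and 1.97. Nts, the precursor of neurotensin, was 13.44, 14.10 and 12.78 on the congenic arrays and 9.12, 13.18 and 13.04 on the wild type arrays. The values of wild type arrays 2 and 3 lay inside the congenic range. Nts differed by 1.66 (SE 1.11; limma adjusted p = 0.936) over all arrays and by 0.33 (-0.58 to 1.24; limma adjusted p = 0.936) without wild type array 1.

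Cck, the precursor of cholecystokinin, was 16.50, 15.53 and 13.21 on the congenic arrays and 15.60, 15.21 and 15.41 on the wild type arrays. Here wild type array 1 was within the range of the others, and congenic array 3 was the low one. The means were 15.08 ± 1.69 (SD, n = 3) and 15.41 ± 0.19 (n = 3). The difference was -0.32 (SE 0.85; limma adjusted p = 0.952) over all arrays and -0.23 without wild type array 1, but 0.61 without congenic array 3 (limma adjusted p = 0.981).

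The bombesin-like peptides followed each other. Nmb, the precursor of neuromedin B, was 11.57, 11.94 and 10.24 on the congenic arrays and 13.10, 10.94 and 10.99 on the wild type arrays. Grp, the precursor of gastrin-releasing peptide, was 11.51, 11.72 and 10.47 on the congenic arrays and 13.57, 11.28 and 11.18 on the wild type arrays. In both, wild type array 1 was highest and congenic array 3 lowest. Their differences were -0.43 (SE 0.83; limma adjusted p = 0.942) and -0.78 (SE 0.82; limma adjusted p = 0.936). On the other 5 arrays they were 0.29 (95% interval -0.88 to 1.45) and 0.00 (-0.97 to 0.98), with limma adjusted p-values of 0.956 and 1.00.

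Bdnf, brain-derived neurotrophic factor, was 10.64, 11.03 and 10.29 on the congenic arrays and 13.18, 8.53 and 10.04 on the wild type arrays. All 3 congenic values were above wild type arrays 2 and 3 and below wild type array 1. On wild type array 2 Bdnf was dim, at percentile 41.0 of the array, and on wild type array 3 it was at percentile 63.7. The means were 10.65 ± 0.37 (SD, n = 3) and 10.58 ± 2.37 (n = 3), a difference of 0.07 (SE 1.11; limma adjusted p = 0.990). Without wild type array 1 Bdnf differed by 1.37 (SE 0.53, 95% interval 0.14 to 2.60; limma adjusted p = 0.900), or 2.58-fold, with an unadjusted p that ranked number 1152 of 33012 probes. Without wild type array 2 in place of array 1 the difference was -0.96.

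Ucn, the precursor of urocortin, was near or below the array median throughout. It was 9.36, 7.99 and 7.84 on the congenic arrays and 8.02, 6.98 and 9.09 on the wild type arrays. The strains overlapped with and without wild type array 1. On the 5 arrays that resembled each other these values lay between percentiles 1.64 and 55.8 of their arrays, and no detection calls were available, so whether they exceed background is not known. The difference was 0.36 both over all arrays (SE 0.67; limma adjusted p = 0.941) and without wild type array 1 (SE 0.76; limma adjusted p = 0.962).

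**Figure D3:**
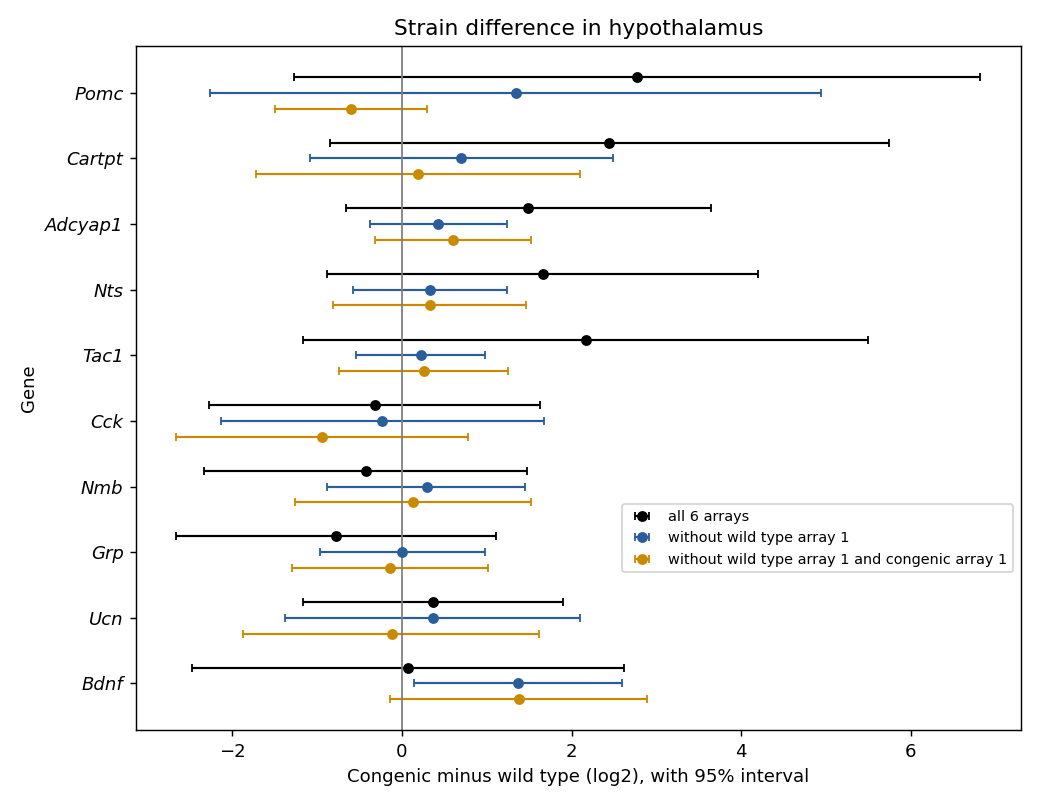
Strain difference (congenic minus wild type, log2) of each gene in hypothalamus with its 95% limma interval, shown for the 6 arrays, for the 5 that remain without wild type array 1, and for the 4 that remain when congenic array 1 is dropped too. Bdnf without wild type array 1 (0.14 to 2.60) is the one interval that leaves out 0, and the estimate for Pomc goes from 2.77 to 1.34 and to -0.60.

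The 5 arrays other than wild type array 1 differed among themselves as well. Congenic array 3 was the lowest of the 5 for 6 of the 10 genes (Pomc, Cartpt, Nts, Cck, Nmb and Grp) and the highest for Adcyap1 and Tac1, where it was lowest for 23.7% and highest for 23.5% of all probes. Of 15 other hypothalamic peptide genes 9 were lowest and 3 highest on it. Of 12 genes that process peptides or build their vesicles, 0 were lowest and 9 highest. Of 5 microglia and macrophage genes 4 were lowest and 0 highest. Congenic array 1 was highest for 4 genes (18.2% of probes) and lowest for 0 (19.0%), and congenic array 2 likewise for 4 (22.4%) and 0 (25.9%). Wild type array 2 was lowest for 4 (15.1%), namely Adcyap1, Tac1, Ucn and Bdnf. Haemoglobin, Hba-a1, was likewise 16.76 and 17.73 on congenic arrays 1 and 2, 13.58 on congenic array 3 and 15.42 and 15.59 on wild type arrays 2 and 3. The other markers of blood measured, Alas2 and Slc4a1, were 10.26 to 11.38 and 7.65 to 8.19 on these 5 arrays, and neither was lowest on congenic array 3. Oligodendrocyte genes stood high on congenic array 3, where 4 of 5 were the highest of the 5 arrays and their median was 12.75, against 9.74 to 11.33 on the other 4. Mbp, a myelin protein gene, was 9.78, 15.57 and 17.24 on the congenic arrays and 10.46 and 11.17 on wild type arrays 2 and 3. Of 4 astrocyte genes 1, Gja1, was highest on congenic array 3, at 11.89 against 7.22 to 8.64. The part of blood or glial cells in the differences was not tested.

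Among all named genes, those whose pattern over the 6 hypothalamus arrays was nearest to Cartpt were Rps26, a ribosomal protein gene, Ndufa1, a subunit of respiratory complex I, and the histone gene H2bc14. Their root mean square distances from Cartpt, after each gene was centred on its mean, were 0.25, 0.27 and 0.31, while Cartpt itself varied by 2.30 around its mean. Rps26 was 18.48, 18.02 and 15.26 on the congenic arrays and 11.07, 16.88 and 16.51 on the wild type arrays. For Adcyap1 the nearest were Acsl4, Dkk3 and Ppt1, each at a distance of 0.17 with a variation of Adcyap1 of 1.32. For Pomc the nearest were no closer than 1.52 (Rps26), 1.55 (Cox7c) and 1.59 (Polr2f), against a variation of 2.79. These distances rest on 6 arrays that the genes share, of which wild type array 1 lies far from the rest, and were not computed without it.

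Lists of receptors, processing enzymes, inputs and other peptides were read beside the 10 genes. Over all 13840 named genes 0 passed limma with or without wild type array 1. An unadjusted limma p under 0.05 was reached by 1.69% over all arrays and by 6.58% without that array. Of 19 measured receptor genes 0 passed limma on the full set of arrays and 0 with wild type array 1 left out, with 0 and 1 at an unadjusted p under 0.05 and medians of the differences of -0.11 and -0.28. Ntsr2, a neurotensin receptor found on astrocytes, was 16.23, 16.67 and 17.47 on the congenic arrays and 7.19, 18.46 and 18.63 on the wild type arrays. It differed by -1.75 (SE 0.52; limma adjusted p = 0.900) without wild type array 1 and by 2.03 (SE 2.69; limma adjusted p = 0.936) over all arrays. The congenic values were all below wild type arrays 2 and 3. Without wild type array 1 the strains did not overlap, in either direction, for 22.6% of all probes. Named for their role alone, the melanocortin receptors Mc4r and Mc3r differed by 0.21 and 0.11 over all arrays and by -0.07 and -0.16 without that array. On the 6 hypothalamus arrays Mc4r was 8.30 to 9.36 and Mc3r 7.65 to 9.13, around the array median of 8.98. Whether these values exceed background is not known. The Bdnf receptor Ntrk2 differed by 2.63 and -0.37. Adcyap1r1, the PACAP receptor, was 8.77, 9.27 and 9.44 on the congenic arrays and 8.22, 8.23 and 8.56 on the wild type arrays. At these values around the array median the strains did not overlap, as for 9.16% of all probes in either direction. Adcyap1r1 differed by 0.83 over all arrays and 0.77 without wild type array 1. The neuromedin B receptor Nmbr, at 6.96 to 9.85 on the 6 hypothalamus arrays, differed by -1.27 and -0.67.

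Of 12 genes that process peptides or build their vesicles, 0 passed in either fit, with median differences of 0.00 and -0.26. An unadjusted limma p under 0.05 was found for 0 in both fits (1.69% and 6.58% of all named genes). Pcsk1, the convertase that makes the first cuts in proopiomelanocortin, differed by 0.72 over all arrays and by -0.60 without wild type array 1 (limma adjusted p = 0.901). Prcp, a carboxypeptidase that inactivates alpha-melanocyte-stimulating hormone, differed by 1.02 and 1.28 (limma adjusted p = 0.936 and 0.900). Its values were 7.45 to 9.62 on the 6 hypothalamus arrays, around the array median of 8.98.

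Of 13 genes for inputs to Pomc and Cartpt neurons, 0 passed limma in either fit, with median differences of 0.17 and 0.41. An unadjusted limma p under 0.05 was found for 0 and 1 (1.69% and 6.58% of all named genes). Lepr, the leptin receptor, was 7.58, 7.33 and 8.31 on the congenic arrays and 8.42, 8.91 and 9.0 on the wild type arrays. All congenic values were below all wild type values, as for 5.69% of probes, and most lay below the common array median of 8.98. It differed by -1.04 (SE 0.47; limma adjusted p = 0.936) over all arrays and -1.22 (SE 0.49; limma adjusted p = 0.900) without wild type array 1. The ghrelin receptor Ghsr, at 7.46 to 10.06 on the 6 hypothalamus arrays, differed by 1.39 and 1.14. Of 15 other hypothalamic peptide genes 0 passed, with 0 and 1 at an unadjusted limma p under 0.05 (1.69% and 6.58% of named genes). Their median differences were 0.16 and 0.21. Hcrt differed by 1.65 over all arrays and by -1.45 without wild type array 1 (limma adjusted p = 0.936 and 0.900), and Oxt, oxytocin, by 0.78 and 1.19 (limma adjusted p = 0.936 and 0.900).

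In skeletal muscle none of the 10 genes passed the test, and the strains did not overlap for Pomc. Pomc was 10.72, 11.89 and 10.76 on the congenic muscle arrays and 9.45, 9.02 and 8.40 on the wild type muscle arrays. All congenic values were above all wild type values, as for 6.65% of probes. The means were 11.12 ± 0.67 (SD, n = 3) and 8.96 ± 0.53 (n = 3), a difference of 2.17 (SE 0.46, 95% interval 1.14 to 3.19), or 4.49-fold. The limma adjusted p was 0.835, so Pomc did not pass, although its unadjusted p ranked number 31 of 33012 probes. Leaving out each array in turn gave 1.78 to 2.42, with limma adjusted p-values of 0.556 to 0.965.

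Pituitary hormone genes were read in muscle too. Gh was 9.05, 7.69 and 9.69 in congenic and 7.68, 7.99 and 8.72 in wild type muscle, and Prl was 7.33 to 7.74 and 7.83 to 8.11. The luteinizing hormone subunit gene Lhb was at most 12.38 in congenic and 12.45 to 13.08 in wild type muscle, above the median of every array. Its congenic values were thus below its wild type values, where 11.9% of all probes did not overlap in either direction. The median of the 6 anterior pituitary markers was 8.16 to 8.77 in congenic and 7.76 to 8.44 in wild type muscle, below the muscle array median of 9.12. The median of the 6 markers of Pomc-producing pituitary cells was 9.25 to 9.77 and 8.91 to 9.03, without overlap. How often medians of 6 probes separate in this way was not computed. The part of these cells in the Pomc difference was not tested. Of the latter markers 4 had a positive and 2 a negative difference, with 0 at an unadjusted limma p under 0.05. Tbx19 differed by 0.99 (limma adjusted p = 0.835). It was 9.11, 10.88 and 9.23 in congenic and 8.61, 9.0 and 8.65 in wild type muscle. Of these markers Tbx19 alone did not overlap between the strains, where 11.9% of all probes did not. Crhr1 was 9.38, 9.94 and 10.94 in congenic and 10.71, 10.24 and 10.91 in wild type muscle. The Pomc values lay between percentiles 33.3 and 78.6 of their arrays. Of 5 macrophage genes 3 had an unadjusted limma p under 0.05 in muscle, where 5.01% of all probes did. These were the complement genes C1qa, C1qb and C1qc, with differences of 0.99, 0.92 and 0.82. Their adjusted limma p-values were 0.465, 0.835 and 0.835. The other macrophage genes, Itgam and Aif1, differed by -0.55 and -0.43. The part of macrophages in the Pomc difference was not tested.

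The other 9 genes overlapped between the strains in muscle, where 11.9% of probes did not, and 1 of 10, Pomc, had an unadjusted limma p under 0.05, where 5.01% of all probes did. By adjusted p 0 of 10 passed, against 0.0182% of probes. Nmb was 12.64, 13.04 and 12.73 in congenic and 12.75, 12.01 and 12.40 in wild type muscle, with a difference of 0.41 (SE 0.25; limma adjusted p = 0.835). Cck was 11.21, 11.08 and 10.72 in congenic and 11.62, 11.51 and 10.64 in wild type muscle. Ucn differed by -0.84 (SE 0.46; limma adjusted p = 0.835) and Grp by -0.57. Their values in muscle lay at percentiles 13.6 to 56.8 and 4.02 to 59.0 of their arrays. The remaining differences were -0.41 (Nts) to 0.35 (Tac1).

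**Figure D4:**
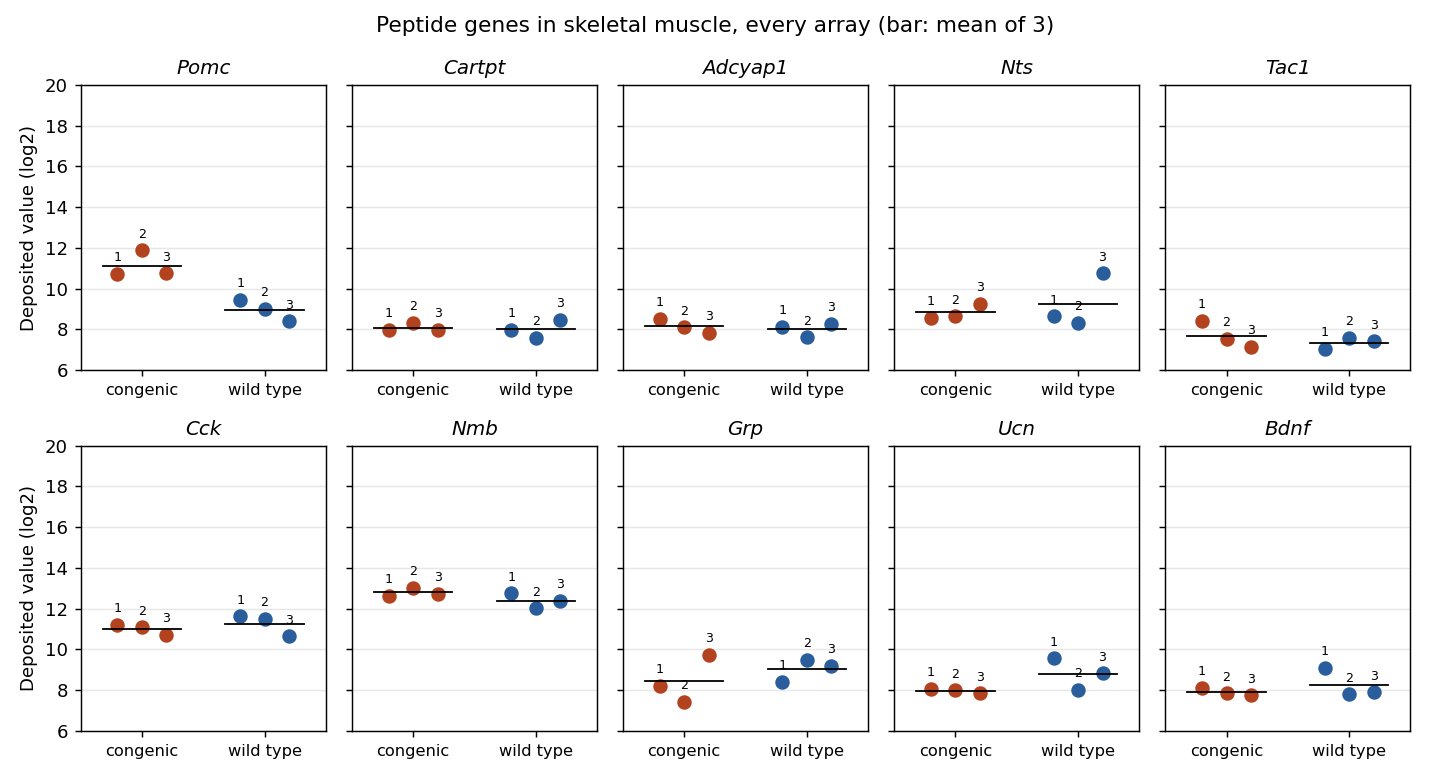
Deposited value (log2) of each gene on the 6 skeletal muscle arrays, with the replicate number above each point and the mean of 3 as a bar. The 3 congenic values of Pomc, from 10.72 to 11.89, are above the 3 wild type values, from 8.40 to 9.45, and the strains overlap for each of the other 9 genes.

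Levels in the tissues were set side by side with the caution that the arrays of each tissue share a distribution of their own, so that no test was made. Of the 10 genes, 7 were higher on all 5 hypothalamus arrays other than wild type array 1 than on all 6 muscle arrays, as 11.8% of probes were. With wild type array 1 included, an alternative added after seeing the data, 4 were (Cartpt, Tac1, Cck and Grp), against 6.91% of probes, and Pomc, Adcyap1 and Nts overlapped. The gap between the medians was 8.57 for Cartpt, 7.95 for Tac1, 4.53 for Nts, 4.26 for Cck, 3.23 for Adcyap1, 2.88 for Pomc and 2.47 for Grp. For Nmb the gap was -1.69, with lower values on all 5 hypothalamus arrays (17.7% of probes). With wild type array 1, where Nmb was 13.10, the tissues overlapped for it, and 0 of 10 genes were lower without overlap (13.3% of probes). Bdnf (a gap of 2.42) and Ucn (-0.05) overlapped between the tissues.

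Whether the strain difference itself differed between the tissues was asked with an interaction test over the 12 arrays. It is not clear whether both tissues came from the same mice. The test took the 12 arrays as independent, so its intervals and p-values leave out any pairing within a mouse. None of the 10 genes passed limma (0.0% of probes did), and 0 of 10 had an unadjusted p under 0.05, as 3.63% of probes did. For Pomc the difference in hypothalamus exceeded that in muscle by 0.60 (95% interval -3.72 to 4.93; limma adjusted p = 0.964). Without wild type hypothalamus array 1 it was -0.83 (-4.42 to 2.76; limma adjusted p = 0.933). Bdnf gave 1.72 (0.09 to 3.35; limma adjusted p = 0.736) without that array, the 1 gene of the 10 with an unadjusted p under 0.05, against 6.74% of probes.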

How the data were processed

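Arrays of 12 samples were used, 3 in each of 4 groups. Per the labels' protocols, total RNA was transcribed into digoxigenin-labelled cRNA for chemiluminescent detection. The deposited values are on a log2 scale, a base inferred from their range, since no label or header states the image software, background correction or normalization. The 6 arrays of a tissue share 1 distribution of values, which differs between tissues. Genes were named through the platform annotation: 14411 of 33012 probes had 1 symbol, 247 several and 18354 none, and 14402 matched the RefSeq gene table.

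Strains were compared per tissue by limma (version 3.58.1, R 4.3.3), using lmFit and eBayes with its trend option, on all 33012 probes. P-values were adjusted over all probes by the Benjamini-Hochberg method, and 0.05 was the threshold. The interaction used all 12 arrays, with no term for the mouse. Other settings left out arrays, used a replicate block, array weights, no trend, a floor, quantile normalization, a filter on dim probes or 1 fit of all arrays. Genes named from the lists were up to 4 per list with the smallest p in hypothalamus, beside those named for their role or for another result. The members and lists were chosen with earlier results of these data known. The number of arrays limits the precision.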

Additional observations from a re-analysis of the deposited data

How the results depend on the processing

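No adjusted call was gained or lost for the 10 genes: limma adjusted p-values were 0.416 to 1.00 over 15 settings in hypothalamus, 0.556 to 0.995 over 8 in muscle and 0.736 to 0.997 over 2 for the interaction. The lowest was Bdnf with array weights, a difference of 1.60. The direction was less stable. With wild type array 1 and congenic array 1 both left out, the sign turned for Pomc (-0.60), Nmb (0.13) and Ucn (-0.12), and with array weights for Cck (0.31), Nmb (0.45) and Grp (0.09). Leaving out 1 hypothalamus array at a time gave -1.03 to 0.61 for Cck, -0.80 to 0.29 for Nmb, -1.19 to 0.00 for Grp, -0.16 to 0.89 for Ucn and -0.96 to 1.37 for Bdnf. In muscle it gave -0.13 to 0.31 for Cartpt, -0.05 to 0.31 for Adcyap1, -0.87 to 0.35 for Nts, -0.01 to 0.63 for Tac1 and -0.59 to 0.06 for Bdnf. Without wild type hypothalamus array 1 the interaction turned for Pomc (-0.83), Tac1 (-0.13), Cck (0.02) and Grp (0.58). The cause was not tested. Deviations of same-numbered arrays correlated by -0.129 to 0.138 in hypothalamus and 0.015 to 0.069 in muscle. For differently numbered arrays the correlations were -0.156 to 0.144 and -0.083 to 0.017. Each deviation is taken from a mean of 3 arrays, so these correlations cannot tell whether the numbers pair the samples. With the replicate block 0 of the 10 genes passed in either tissue, and Pomc differed by 2.77 in hypothalamus (limma adjusted p = 0.972) and 2.17 in muscle (limma adjusted p = 0.756). The mean of all probes of a gene was not run, since each gene had 1 probe, and the filter on dim probes removed Ucn. The count of genes higher in hypothalamus than in muscle without overlap went from 7 to 4 when wild type array 1 was included, an alternative chosen after seeing the data, as were the counts for the lists and for groups without overlap when arrays were left out. Without detection calls, how far dim values exceed background is not known.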
